A study of Mus musculus with 8 samples.

Results

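The genes described here are those whose RNA differed in the same direction in marrow and spleen hematopoietic stem cells (HSCs) of anemic mice. The 5 libraries of phenylhydrazine (PHZ)-treated mice, 3 from bone marrow (PHZ BM HSC) and 2 from spleen (PHZ SP HSC), were taken as one side and the 3 libraries of control bone marrow (control BM HSC) as the other. A gene was a member if every PHZ library lay above, or every one below, all 3 control libraries, and such a gene is called separated. Of 11347 genes tested, 1176 were separated (10.4%), 615 of them higher (5.42%) and 561 lower (4.94%) in the PHZ libraries. Separation is the rule itself and is given as a description with no test. Of the 1176 genes, 60 also passed limma's test of the 5 PHZ against the 3 control libraries, its p-values adjusted by Benjamini-Hochberg across the 11347 genes.

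HSCs were sorted from wild-type (WT) C57BL/6 mice as lineage-negative Sca-1+ c-Kit+ cells that were CD150+ and CD48-/low. The study's methods give an age of 8 to 12 weeks and both sexes for its mice as a whole, and the labels used here give no sex. The Y-linked genes Eif2s3y and Ddx3y had 11.3 to 17.6 and 3.49 to 7.04 FPKM over the 8 libraries, and Xist, which is transcribed from the inactive X chromosome of female cells, had 0.0431 to 1.06 FPKM. The treated mice received 60 mg/kg PHZ, an agent that lyses red cells and makes mice anemic, in each of 2 intraperitoneal injections. Their HSCs were taken 3 days after the last injection, and the control mice carried the label PBS. Spleen HSCs of mice without PHZ were not analysed here, so in the spleen the tissue and the treatment cannot be told apart, and the separation rule asks only that both tissues lie on the same side of control marrow. The labels do not say whether each library came from its own animal, so p-values measure the spread between these libraries, which may be technical. The marrow columns of the deposited tables are named WBM where the labels say BM HSC, and were taken as sorted HSCs. In bulk RNA, fewer cells of a type and less RNA per cell cannot be told apart.

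HSCs sit at the top of the blood hierarchy and are mostly quiescent in the adult marrow, from where they can move to the spleen when the demand for red cells rises. Cells that receive a signal first transcribe immediate early genes such as those of the AP-1 family, whose proteins are transcription factors, and then genes of phosphatases and RNA-binding proteins that limit the same signal. Glucocorticoids, FoxO factors and Notch each act through target genes of their own, some of which are also quick to respond.

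Expression is given as FPKM, that is fragments per kilobase of a gene and corrected for sequencing depth. Differences between groups are PHZ minus control on the log2(FPKM + 1) scale with the standard error (SE), and this scale understates the change of genes with low values. The libraries held 8216626 to 13201359 reads, of which the ribosomal RNA precursor Rn45s took 43.3% to 48.6%. Libraries of a group correlated across genes, which are not independent replicates, with r from 0.903 to 0.976, and control BM HSC replicate 1 stood furthest from its group, at 0.903 and 0.914.

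The 60 genes past the threshold (0.529% of those tested) were 49 higher and 11 lower in the PHZ libraries. Of the higher genes, 9 belonged to lists of AP-1 and other immediate early genes, feedback regulators, glucocorticoid targets and FoxO and quiescence genes, and 8 were histone genes. The higher genes had a median log2 difference of 1.45 and the lower ones of -1.23, beside 0.01 over all genes tested, and the choice of the genes itself sets these medians apart. Without adjustment, 1791 genes had p below 0.05. The number of genes past the threshold rested on few libraries. It was 5 without control BM HSC replicate 1 (Wfdc17, Pbld1, Jun, Hes1 and H1f2), 29 without replicate 2 and 35 without replicate 3, and 18, 14 and 21 without PHZ BM HSC replicates 1, 2 and 3. With voom on reads worked back from the FPKM values, 33 genes passed, 17 higher and 16 lower, of which 25 were among the 60.

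Of the 60 genes, 4 kept their call whichever of the 8 libraries was dropped: Wfdc17, Pbld1, Jun and Hes1. Wfdc17 (chromosome 11, 83704056 to 83706269, build GRCm38) encodes a small secreted protein of the WAP domain family known from activated macrophages. It had 9.40, 5.39 and 9.49 FPKM in the control libraries, 35.4, 77.3 and 64.1 FPKM in PHZ BM HSC and 70.1 and 80.1 FPKM in PHZ SP HSC. The lowest PHZ library was at 35.4 FPKM and the highest control at 9.49 FPKM, and marrow and spleen overlapped. The difference was 2.85 ± 0.26 (limma adjusted p = 0.0013), with a highest adjusted p of 0.0121 when a library was left out. Voom was the only one of 10 other settings in which it did not pass (0.0577).

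Pbld1 (chromosome 10, 63060625 to 63077964) was close to absent from control HSCs, at 0.977, 0.480 and 0.135 FPKM. It had 6.46, 6.13 and 6.23 FPKM in PHZ BM HSC and 5.10 and 6.82 FPKM in PHZ SP HSC, so that the marrow values lay within the range of the spleen values. The difference was 2.26 ± 0.24 (limma adjusted p = 0.00205), and that between spleen and marrow was -0.07. Hes1 (chromosome 16, 30065357 to 30067796) encodes a transcriptional repressor that Notch signalling induces. It had 1.88, 1.02 and 0.358 FPKM in the controls, 7.84, 6.73 and 10.3 FPKM in PHZ BM HSC and 7.97 and 4.81 FPKM in PHZ SP HSC. Its difference was 2.06 ± 0.28 (limma adjusted p = 0.0137), and voom was the only one of 9 other settings in which it did not pass (0.104).

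**Figure D1:**
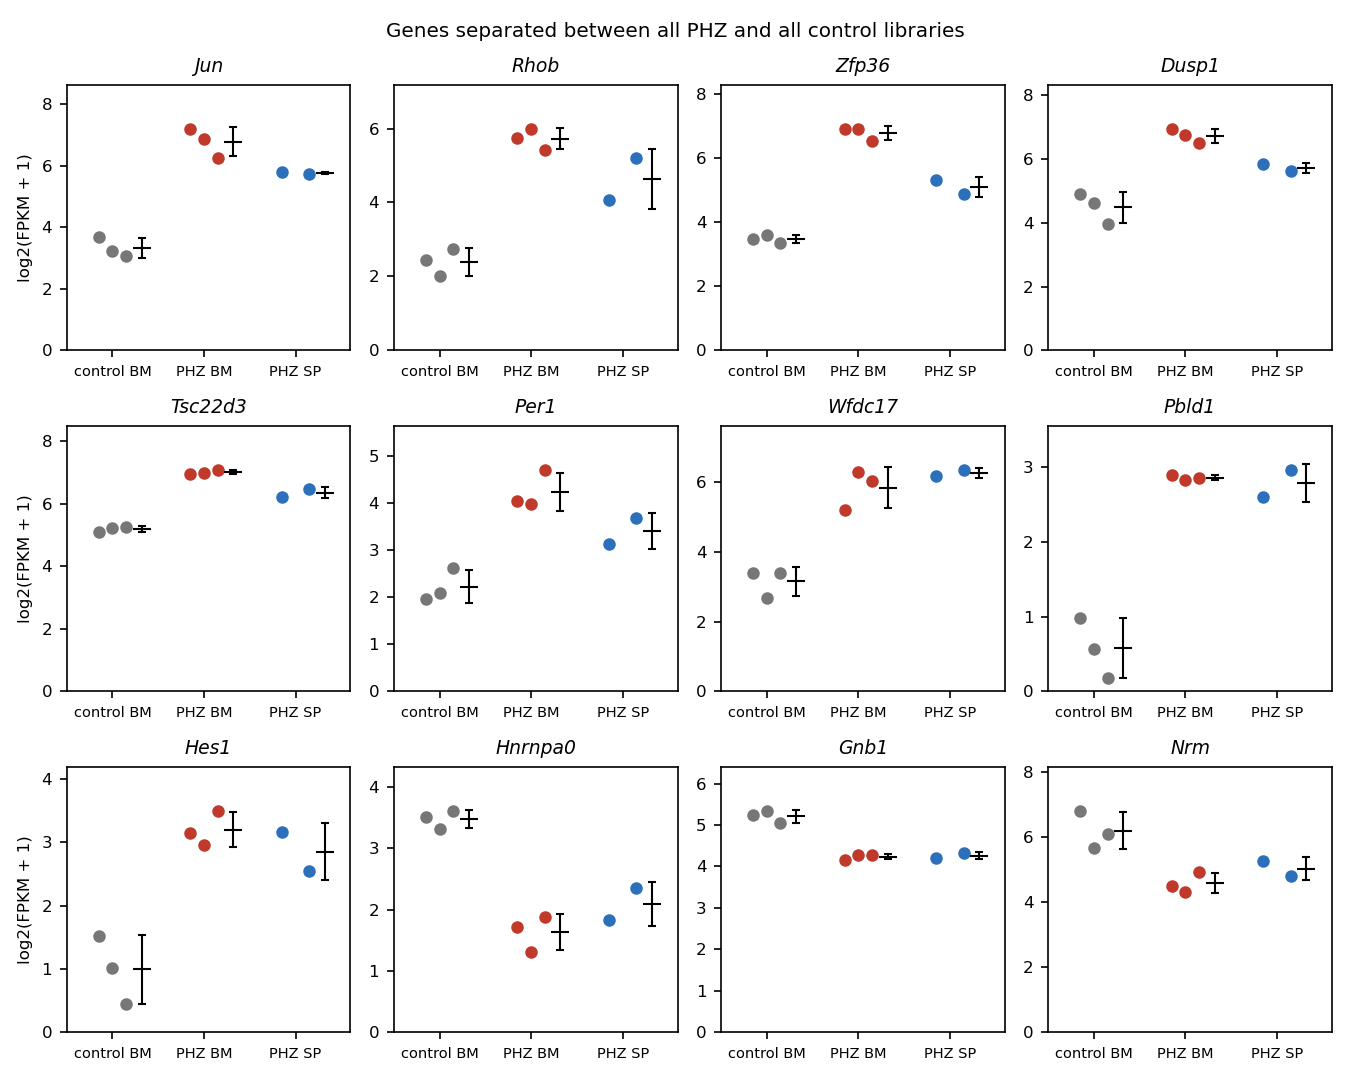
Expression of 12 separated genes in each library, as log2(FPKM + 1) on the vertical axis, for control BM HSC (gray, 3 libraries), PHZ BM HSC (red, 3) and PHZ SP HSC (blue, 2). Points are libraries and the black bar is the mean with its SD. In each panel all 5 PHZ libraries lie on one side of the 3 controls, and Jun, Rhob, Zfp36 and Dusp1 sit higher in marrow than in spleen.

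The AP-1 family was examined first, since its members dimerize into the transcription factor that carries many early responses. Of 11 members tested, 5 were separated higher and none lower (45.5%, beside 5.42% of all genes). These were Jun, Junb, Fos, Fosl2 and Atf3, and the median of the list was 0.93 over the 5 PHZ libraries, 1.58 in marrow and 0.06 in spleen. Jun (chromosome 4, 95049036 to 95052222) had 11.9, 8.39 and 7.32 FPKM in the controls, 146, 117 and 75.7 FPKM in PHZ BM HSC and 54.0 and 52.4 FPKM in PHZ SP HSC. The lowest PHZ library, from spleen, was far above the highest control, and both spleen libraries lay below all marrow ones. The difference was 3.05 ± 0.32 (limma adjusted p = 0.00389), and Jun was the only AP-1 gene to pass in this fit of 5 against 3 libraries. It also passed in each of 10 other settings.

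Fos and Junb had a different shape. Fos, the usual partner of Jun, had 1.13, 2.02 and 2.98 FPKM in the controls, 152, 140 and 162 FPKM in PHZ BM HSC and 6.08 and 13.8 FPKM in PHZ SP HSC. The spleen libraries were above the controls but far below the marrow, and the difference of 4.13 ± 1.17 over the 5 libraries did not pass (limma adjusted p = 0.176). In that fit the gap between marrow and spleen counts as spread. In a fit with 3 groups, one for each tissue and one for control, Fos passed against control in marrow and in spleen (limma adjusted p = 4.25e-06 and 0.0392). Junb had 14.1, 19.9 and 12.3 FPKM in the controls, 148, 136 and 139 FPKM in PHZ BM HSC and 44.0 and 34.3 FPKM in PHZ SP HSC (2.40 ± 0.50, adjusted p = 0.0699). In the fit with 3 groups Junb also passed in both tissues (limma adjusted p = 8.65e-06 in marrow and 0.0202 in spleen). Fosl2 was low throughout, from 0.314 to 0.663 FPKM in the controls, from 2.80 to 7.93 FPKM in PHZ BM HSC and at 1.40 and 1.98 FPKM in PHZ SP HSC (adjusted p = 0.117).

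Among the other immediate early genes, 6 of 15 tested were separated higher and 1 lower (40.0% and 6.67%, beside 5.42% and 4.94% of all genes). The median of the list was 1.19, which was 1.16 in marrow and 0.03 in spleen. Rhob, Klf6 and Btg2 passed the test. Nr4a1, Ier2 and Klf2 were higher without passing, and the lower one was Klf10, at -0.97. Rhob (chromosome 12, 8497661 to 8500009), a small GTPase of the cytoskeleton and endosomes, had 4.44, 3.01 and 5.73 FPKM in the controls, 52.3, 62.6 and 42.0 FPKM in PHZ BM HSC and 15.6 and 35.9 FPKM in PHZ SP HSC. The spleen libraries again lay between the controls and the marrow. Its difference was 2.88 ± 0.37 (limma adjusted p = 0.0137), and 0.101 without control BM HSC replicate 1.

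Klf6 (chromosome 13, 5861489 to 5870393), a zinc finger transcription factor, was among the genes at about the same level in both tissues. It had 9.23, 8.31 and 6.15 FPKM in the controls, 17.2, 19.6 and 19.3 FPKM in PHZ BM HSC and 18.4 and 24.9 FPKM in PHZ SP HSC (1.24 ± 0.19, limma adjusted p = 0.0185, and 0.0661 without control BM HSC replicate 1). Btg2 (chromosome 1, 134074865 to 134079155), which slows the cell cycle, had 1.34, 1.41 and 3.06 FPKM in the controls, 13.1, 12.7 and 9.33 FPKM in PHZ BM HSC and 7.17 and 5.57 FPKM in PHZ SP HSC (1.84 ± 0.30, adjusted p = 0.0251, and 0.13 without control BM HSC replicate 1).

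Feedback regulators limit a signal once it has started. Of 16 tested, 5 were separated higher and none lower (31.2%, beside 5.42% of all genes), and 2 passed, Zfp36 and Dusp1. By their means 12 were higher and 4 lower in PHZ, and the median of 0.48 was 0.79 in marrow and 0.20 in spleen. Zfp36 (chromosome 7, 28376784 to 28379228) encodes tristetraprolin, which binds AU-rich elements of messenger RNAs and speeds their decay. It had 10, 11 and 9.14 FPKM in the controls, 119, 120 and 92.5 FPKM in PHZ BM HSC and 39.0 and 28.6 FPKM in PHZ SP HSC. The 3 groups did not overlap, and the difference of PHZ from control was 2.65 ± 0.46 (limma adjusted p = 0.0396, and 0.19 without control BM HSC replicate 1).

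Dusp1 (chromosome 17, 26505591 to 26508472), a phosphatase that switches off MAP kinases, had 28.8, 23.4 and 14.5 FPKM in the controls, 122, 107 and 89.5 FPKM in PHZ BM HSC and 56.3 and 47.9 FPKM in PHZ SP HSC. Here too the spleen lay between the other groups, and the difference was 1.84 ± 0.31 (limma adjusted p = 0.0362, and 0.101 without control BM HSC replicate 1). Socs3, the inhibitor of cytokine receptor signalling by JAK kinases, spread widely within the treated marrow. It had 1.36, 2.38 and 0.945 FPKM in the controls, 6.17, 9.88 and 25.7 FPKM in PHZ BM HSC and 5.15 and 8.77 FPKM in PHZ SP HSC (2.07 ± 0.41, adjusted p = 0.0529). Dusp2 (1.39) and Zfp36l1 (0.73) were separated without passing. Socs3 also belongs to the list of cytokine receptors and JAK-STAT genes. There, 2 of 19 were separated higher (10.5%, beside 5.42% of all genes), Socs3 and Il3ra, and none lower. By their means 10 were higher and 9 lower, with a median of 0.02, and none passed.

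To show what lies in front of these genes, the 250 bases before the RefSeq start of 5 of them are printed on the gene's own strand, with letters that match a searched motif in capitals. Each of the 5 windows held a motif, so they do not stand for these genes in general. The motifs were the cAMP response element TGACGTCA, its variant TGACATCA that is known from the Jun promoter, the AP-1 site TGANTCA, the FoxO site GTAAACA, the glucocorticoid response element and the CArG box, which serum response factor binds. No match to one of the 3 motifs that begin with TGA is also a match to another of them.

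Jun, chr4:95052223-95052472, minus strand, TGACATCA from 45 bases before the start: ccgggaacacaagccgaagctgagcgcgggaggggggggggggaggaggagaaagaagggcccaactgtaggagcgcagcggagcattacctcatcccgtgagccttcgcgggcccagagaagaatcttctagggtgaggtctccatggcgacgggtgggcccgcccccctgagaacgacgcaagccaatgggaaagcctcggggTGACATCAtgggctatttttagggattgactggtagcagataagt

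Klf6, chr13:5861239-5861488, plus strand, TGACATCA from 119 bases before the start: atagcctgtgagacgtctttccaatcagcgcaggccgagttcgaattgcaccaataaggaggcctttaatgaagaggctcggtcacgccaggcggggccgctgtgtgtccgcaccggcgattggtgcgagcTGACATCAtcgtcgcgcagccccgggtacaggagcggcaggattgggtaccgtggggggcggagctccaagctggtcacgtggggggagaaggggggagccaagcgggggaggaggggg

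Btg2, chr1:134079156-134079405, minus strand, TGACGTCA from 166 bases before the start: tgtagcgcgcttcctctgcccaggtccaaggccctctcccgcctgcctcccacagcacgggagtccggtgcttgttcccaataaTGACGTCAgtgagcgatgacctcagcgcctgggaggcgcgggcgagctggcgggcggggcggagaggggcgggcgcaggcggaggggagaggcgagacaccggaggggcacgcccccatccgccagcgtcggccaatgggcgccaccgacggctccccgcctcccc

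Dusp1, chr17:26508473-26508722, minus strand, TGACGTCA from 143 bases before the start: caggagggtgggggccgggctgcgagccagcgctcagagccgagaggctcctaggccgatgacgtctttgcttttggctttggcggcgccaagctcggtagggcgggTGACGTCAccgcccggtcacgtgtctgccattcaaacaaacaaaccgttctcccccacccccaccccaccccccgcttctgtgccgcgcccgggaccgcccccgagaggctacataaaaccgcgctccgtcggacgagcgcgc

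Zfp36, chr7:28379229-28379478, minus strand, a CArG box from 58 bases before the start: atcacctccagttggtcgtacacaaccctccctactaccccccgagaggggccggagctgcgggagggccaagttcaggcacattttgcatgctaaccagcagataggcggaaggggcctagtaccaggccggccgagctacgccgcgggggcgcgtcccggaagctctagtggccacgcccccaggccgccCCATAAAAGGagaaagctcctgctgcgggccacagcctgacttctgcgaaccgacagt

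The windows come from RefSeq on build GRCm38.p6, and 9108 of the 11347 genes tested had at least 1. Searched on both strands, TGACGTCA was in 2 of 39 genes past the threshold on the higher side that had a window (5.13%), in 3.05% of all genes tested and in 1.77% of all 27025 genes with a window. TGACATCA was in 3 of the 39, namely Jun, Klf6 and Vmp1 (7.69%), beside 1.72% of genes tested and 3.41% of all genes. The AP-1 site was in 3 of 39, beside 5.09% and 7.82%, the CArG box in 1 (1.34% and 1.62%), the FoxO site in 2 (2.69% and 3.54%) and the glucocorticoid response element in none (0.253% and 0.44%). These are matches of letters in a short window and not binding sites. Rhob, also among the early genes, held none of the 6 motifs in its window.

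A list of genes that glucocorticoids are known to induce had the largest share of separated members of the lists used. Of 11 tested, 6 were higher in every PHZ library and none lower (54.5%, beside 5.42% of all genes). The median was 1.15 over the 5 PHZ libraries and 0.73 in spleen. The 6 genes were Tsc22d3, Per1, Rgs2, Cebpd, Mt1 and Mt2. Tsc22d3 (chromosome X, 140539528 to 140600522), which encodes the glucocorticoid-induced leucine zipper protein GILZ, varied little within groups. It had 32.9, 36.6 and 37.5 FPKM in the controls, 124, 125 and 134 FPKM in PHZ BM HSC and 73.7 and 87.4 FPKM in PHZ SP HSC. The 3 groups did not overlap, and the difference was 1.55 ± 0.20 (limma adjusted p = 0.0085, and 0.0675 without control BM HSC replicate 1, the only library whose omission ended the call).

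Per1 (chromosome 11, 69095108 to 69109965), a repressor of the circadian clock that also responds to glucocorticoids, had 2.89, 3.30 and 5.19 FPKM in the controls, 15.5, 14.8 and 25.3 FPKM in PHZ BM HSC and 7.81 and 11.9 FPKM in PHZ SP HSC. All PHZ libraries were above the controls and marrow was above spleen (1.68 ± 0.31, limma adjusted p = 0.0362, and 0.152 without control BM HSC replicate 1). Rgs2, a regulator of G protein signalling, had 8.26, 7.38 and 8.84 FPKM in the controls, 14.5, 17.9 and 12.7 FPKM in PHZ BM HSC and 16.0 and 12.6 FPKM in PHZ SP HSC (adjusted p = 0.0847). The Mt1 and Mt2 genes encode metallothioneins, which bind zinc and copper and also respond to metals, with differences of 1.49 and 2.88 that did not pass.

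Genes of the FoxO and quiescence list were next, as FoxO factors keep HSCs out of cycle. Of 19 tested, 5 were separated higher and 1 lower (26.3% and 5.26%, beside 5.42% and 4.94% of all genes). The median was 0.34, which was 0.46 in marrow and 0.20 in spleen. Pik3ip1 (chromosome 11, 3319241 to 3342971), an inhibitor of PI3 kinase, had 29.0, 30.9 and 34.1 FPKM in the controls, 94.7, 102 and 84.8 FPKM in PHZ BM HSC and 51.8 and 60.2 FPKM in PHZ SP HSC. It was the only one of the list to pass (1.26 ± 0.21, limma adjusted p = 0.0336, and 0.152 without control BM HSC replicate 1). Gabarapl1, of the autophagy machinery, S1pr1, the sphingosine-1-phosphate receptor, Klf2 and the cell cycle inhibitor Cdkn1b were also higher in every PHZ library, by 0.57, 0.77, 1.54 and 0.62. Foxo3 itself was the member that was lower, by -0.47.

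**Figure D2:**
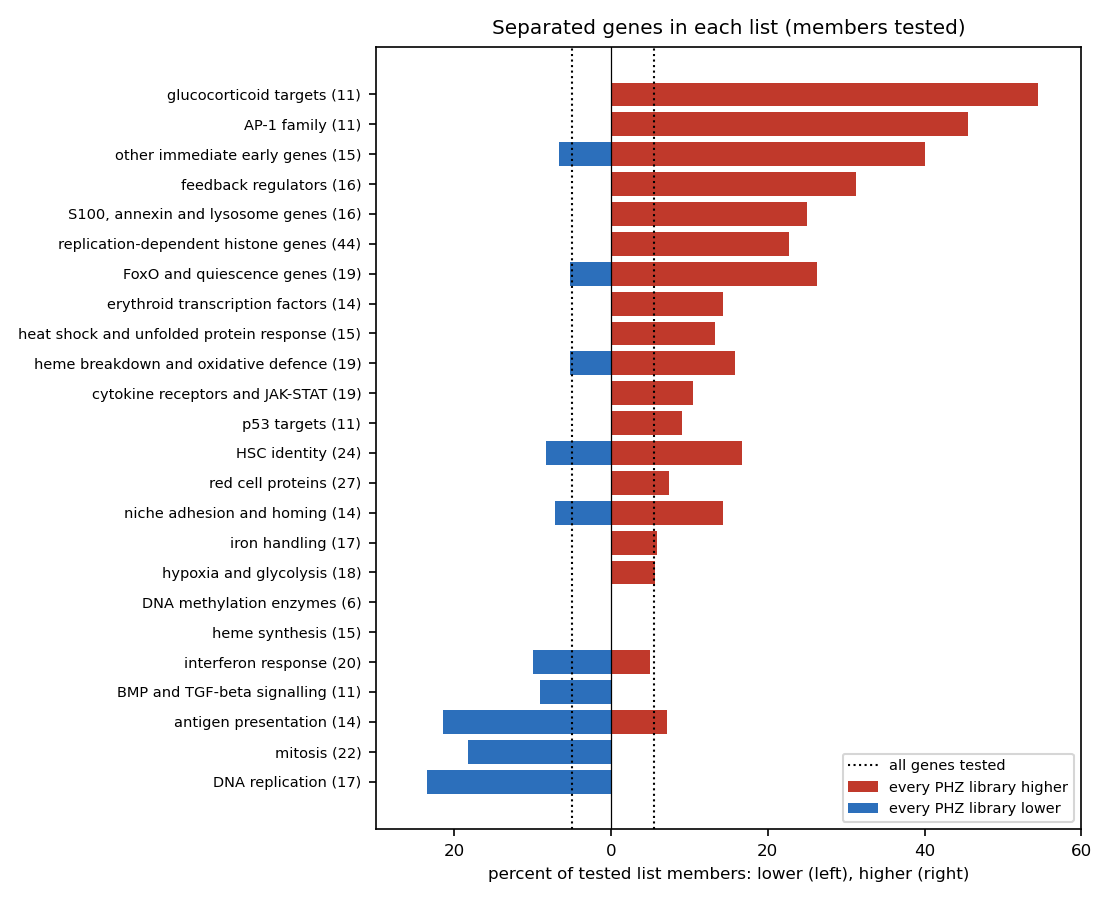
Share of the tested members of each pathway list and of the histone list that were separated, in percent on the horizontal axis, with genes higher in every PHZ library to the right (red) and lower to the left (blue). The lists of cell type markers and sex-linked genes are not drawn. Dotted lines are the shares of all genes tested, 5.42% and 4.94%. Of the lists drawn, the glucocorticoid, AP-1, other immediate early and feedback lists reach furthest to the right, and the DNA replication, antigen presentation and mitosis lists furthest to the left.

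Over all pathway lists, 9 genes passed the test, all higher: Jun, Rhob, Klf6, Btg2, Zfp36, Dusp1, Tsc22d3, Per1 and Pik3ip1. Without control BM HSC replicate 1 this count was 1 and without replicate 2 it was 4. It was 4, 3 and 5 without PHZ BM HSC replicates 1, 2 and 3, and 15 without PHZ SP HSC replicate 1.

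The remaining genes past the threshold lay outside these lists and are described one by one. They were named after their values were seen, so no theme is read from them. Ccl9, a chemokine that attracts myeloid cells, had 0, 1.49 and 0.817 FPKM in the controls, 3.91, 7.52 and 11.7 FPKM in PHZ BM HSC and 14.4 and 14.6 FPKM in PHZ SP HSC (2.67 ± 0.40, limma adjusted p = 0.0185, and 0.101 without control BM HSC replicate 1). Cd53, a tetraspanin of the leukocyte surface, had 4.70, 5.14 and 10.4 FPKM in the controls, 28.0, 32.8 and 76.3 FPKM in PHZ BM HSC and 87.2 and 110 FPKM in PHZ SP HSC (3.01 ± 0.46, adjusted p = 0.0342, and 0.152 without control BM HSC replicate 1). For both genes the highest values were those of the spleen, and no control library reached the lowest PHZ library.

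Il10ra, the ligand-binding chain of the interleukin-10 receptor, had 0, 0.885 and 1.51 FPKM in the controls, 3.98, 5.72 and 9.20 FPKM in PHZ BM HSC and 6.44 and 6.15 FPKM in PHZ SP HSC (2.08 ± 0.32, limma adjusted p = 0.0185, and 0.0824 without control BM HSC replicate 1). Lat2, an adaptor of immune receptors, rose from 0.675 to 1.51 FPKM in the controls to 5.31, 7.27 and 6.23 FPKM in PHZ BM HSC and 3.34 and 3.30 FPKM in PHZ SP HSC (1.59 ± 0.28, adjusted p = 0.0362). Markers of mature cells were read beside these genes. The summed FPKM of 10 macrophage markers was 251 to 286 in the controls, 202 to 258 in PHZ BM HSC and 349 to 350 in PHZ SP HSC, with Adgre1, Csf1r and Marco under 1 FPKM in all libraries. Most of this sum was Lyz2, and without it the sum was 5.06 to 15.6, 6.29 to 21.1 and 39.8 to 61.5 FPKM. Of the rest, Cd68 had 0, 4.58 and 8.48 FPKM in the controls, 4.93, 9.74 and 16.7 FPKM in PHZ BM HSC and 34.4 and 57.6 FPKM in PHZ SP HSC, and it was not separated. The summed FPKM of 10 neutrophil markers was 434 to 748, 512 to 1070 and 1420 to 1820 FPKM, most of it S100a8 and S100a9. Prtn3, a protease of neutrophil granules, was the only neutrophil marker of the 10 to be separated and was highest in marrow, with 81.5, 91.8 and 110 FPKM in the controls, 170, 169 and 214 FPKM in PHZ BM HSC and 111 and 133 FPKM in PHZ SP HSC (0.72 ± 0.19, limma adjusted p = 0.124). Of 8 megakaryocyte markers tested, Selp was separated higher (1.90 ± 0.46) and Ppbp lower (-1.20 ± 0.30), 12.5% each way, and neither passed. Their part in the results on Wfdc17, Ccl9, Cd53, Il10ra and Lat2 was not tested.

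Glul, the glutamine synthetase, had 53.1, 54.2 and 42.2 FPKM in the controls, 98.7, 120 and 94.1 FPKM in PHZ BM HSC and 89.5 and 92.5 FPKM in PHZ SP HSC, a rise of 0.98 ± 0.15, with 1.05 in marrow and 0.86 in spleen (limma adjusted p = 0.0185, and 0.0824 without control BM HSC replicate 1). Tcn2, the carrier of vitamin B12 in plasma, had 8.13, 11.8 and 12.6 FPKM in the controls, 22.7, 27.9 and 25.7 FPKM in PHZ BM HSC and 23.7 and 22.9 FPKM in PHZ SP HSC (1.13 ± 0.18, adjusted p = 0.0223). The glutathione transferase Gstm1 (0.90), the triglyceride lipase Pnpla2 (0.81), the phospholipid scramblase Plscr1 (1.01), the membrane protein stomatin, Stom (1.26), the autophagy protein Vmp1 (1.08), the GTPase Rab20 (1.45) and the cAMP phosphodiesterase Pde4b (0.88) also rose, with adjusted p-values from 0.0353 to 0.0475.

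Trim47, a ubiquitin ligase, had 53, 53.5 and 36.3 FPKM in the controls, 132, 148 and 112 FPKM in PHZ BM HSC and 74.4 and 87.5 FPKM in PHZ SP HSC (1.18 ± 0.22, limma adjusted p = 0.0396, and 0.152 without control BM HSC replicate 1). The spleen lay between the other groups here. Zfp511, a zinc finger gene, was level across tissues, with 6.98, 6.27 and 7.10 FPKM in the controls, 14.5, 14.3 and 13 FPKM in PHZ BM HSC and 14.8 and 14.3 FPKM in PHZ SP HSC (0.96 ± 0.16, adjusted p = 0.0336, and 0.101 without control BM HSC replicate 1). Golm1, a Golgi membrane protein, was the opposite of Trim47, with 0, 0 and 0.967 FPKM in the controls, 1.70, 2.69 and 2.45 FPKM in PHZ BM HSC and 3.92 and 4.87 FPKM in PHZ SP HSC (1.67 ± 0.32, adjusted p = 0.0427, and 0.164 without control BM HSC replicate 1). The sterol transfer protein gene Gramd1a (1.05), the endocytosis gene Necap2 (0.96), the depalmitoylase Lypla2 (1.01), the endoplasmic reticulum chaperone Dnajb12 (1.14), Eva1b (0.94), Zfp52 (1.63) and Gm973 (1.59) also rose, with adjusted p-values from 0.0351 to 0.0396.

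Tsc22d1, a leucine zipper protein related to GILZ, had the smallest difference between the tissues of the 60 genes. It had 30, 31.8 and 27.6 FPKM in the controls, 58.5, 56.2 and 80.5 FPKM in PHZ BM HSC and 63.1 and 65.4 FPKM in PHZ SP HSC. Its difference from control was 1.08 ± 0.15 (limma adjusted p = 0.0137, and 0.0824 without control BM HSC replicate 1) and was 1.08 in marrow and 1.08 in spleen.

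Of the 60 genes, 5 do not encode proteins. The long noncoding RNA Bloc1s6os had no read in any control library and 19, 17 and 13 reads in PHZ BM HSC and 15 and 10 reads in PHZ SP HSC (limma adjusted p = 0.0336). No fold is given because the controls were all at 0, and as the handling of strand is not stated, its reads cannot be told apart from those of a gene on the other strand. The small nucleolar RNA Snora17 rested on 0, 2 and 2 reads in the controls and on 7 to 11 reads in the PHZ libraries, and Bvht on 0, 0 and 1 and on 7 to 21 reads. Snord118 and Gm14317 were the others.

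The 11 genes that fell (0.0969% of those tested) had differences from -1.66 to -0.82. None of them passed when the replicate number was added to the fit as a block. Hnrnpa0 (chromosome 13, 58125879 to 58128556), an RNA-binding protein of the hnRNP family, had 10.4, 8.96 and 11.2 FPKM in the controls, 2.28, 1.47 and 2.69 FPKM in PHZ BM HSC and 2.57 and 4.09 FPKM in PHZ SP HSC. The highest PHZ library, from spleen, was still below every control, and the difference was -1.66 ± 0.24 (limma adjusted p = 0.0185, and 0.0852 without control BM HSC replicate 1). Gnb1 (chromosome 4, 155491300 to 155559269), a beta subunit of heterotrimeric G proteins, varied little within groups, with 37.0, 39.6 and 32 FPKM in the controls, 17.0, 18.3 and 18.3 FPKM in PHZ BM HSC and 17.4 and 19.0 FPKM in PHZ SP HSC (-0.96 ± 0.15, adjusted p = 0.0185, and 0.101 without control BM HSC replicate 1).

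Nrm, an inner nuclear membrane protein, had 111, 50.1 and 66.9 FPKM in the controls, 21.5, 18.9 and 29.6 FPKM in PHZ BM HSC and 37.6 and 26.6 FPKM in PHZ SP HSC (-1.43 ± 0.26, limma adjusted p = 0.0363, and 0.152 without control BM HSC replicate 1). Dtymk, the thymidylate kinase that supplies a building block of DNA, had 44.2, 50.1 and 57.5 FPKM in the controls, 24.4, 26.3 and 34.2 FPKM in PHZ BM HSC and 29.9 and 26.6 FPKM in PHZ SP HSC (-0.82 ± 0.16, adjusted p = 0.0433, and 0.132 without control BM HSC replicate 1). The other 7 were the centriole protein gene Poc1a (-1.20), the chromatin protein gene Nucks1 (-1.23), the mitochondrial fission regulator Mtfr2 (-1.46), the phosphatase Ptp4a2 (-0.94), Slfn9 (-1.21), the zinc finger gene Zik1 (-1.35) and 1500009L16Rik (-1.30), with adjusted p-values from 0.0362 to 0.0396. When the 8 libraries were dropped in turn, each of these 7 passed in 1 or 2 of the 8 fits.

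Histone genes were among the genes that rose, and this list was made after their values were seen. Replication-dependent histone genes are expressed in S phase, lie in clusters, and make messenger RNAs that usually end in a stem-loop and not in a poly(A) tail, so that a protocol such as SMART-Seq2, which primes on poly(A), reads them only in part. Of 44 such genes tested, 10 were separated higher (22.7%, beside 5.42% of all genes) and none lower. Of the 44, 8 passed, where 0.432% of all genes passed on the higher side: H1f2, H1f4, H2ac6, H2bc8, H3c6, H4c3, H4c4 and H4c14. Of these 8, 7 lie on chromosome 13 and H4c14 on chromosome 3. The share of the 44 genes on chromosome 13 is not given, so nothing is read from this. The list's median was 0.45, 0.31 in marrow and 0.49 in spleen, and 32 of the 44 genes had a higher mean in PHZ. Copies of these genes are near-identical, so reads could be split between them by the authors' counting and their values are uncertain.

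H1f2 (chromosome 13, 23738807 to 23739531), a linker histone, had 24.7, 8.51 and 14.5 FPKM in the controls, 123, 105 and 72.6 FPKM in PHZ BM HSC and 52.5 and 64.6 FPKM in PHZ SP HSC. The lowest PHZ library, from spleen, was above the highest control, and the difference was 2.37 ± 0.33 (limma adjusted p = 0.0185, and 0.0545 without control BM HSC replicate 3). H2ac6 (chromosome 13, 23683473 to 23683959), a gene of the core histone H2A, had 4.20, 11.7 and 7.62 FPKM in the controls, 38.2, 32.1 and 16.5 FPKM in PHZ BM HSC and 24.7 and 27.0 FPKM in PHZ SP HSC (1.74 ± 0.30, adjusted p = 0.0353, and 0.152 without control BM HSC replicate 1). H4c4 (chromosome 13, 23581568 to 23581969), a gene of histone H4, had 43.3, 25.0 and 39.0 FPKM in the controls, 74.1, 86.3 and 107 FPKM in PHZ BM HSC and 65.8 and 75.2 FPKM in PHZ SP HSC (1.19 ± 0.20, adjusted p = 0.0336, and 0.0946 without control BM HSC replicate 2).

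The other 5 histone genes rose by 1.07 to 2.20. The count of 8 fell to 1, 2 and 1 without control BM HSC replicates 1, 2 and 3, to 1, 1 and 2 without PHZ BM HSC replicates 1, 2 and 3, and to 5 without PHZ SP HSC replicate 2. All 8 of the separated histone genes that had a RefSeq window held a CCAAT box in the 250 bases before the start, beside 33 of 39 histone genes with a window (84.6%) and 41.0% of all genes tested. The window of H2ac6 is shown with its CCAAT boxes, 2 of which lie on the other strand as ATTGG, and its TATA box in capitals.

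H2ac6, chr13:23683960-23684209, minus strand, CCAAT boxes from 169, 98 and 69 bases and TATAAA from 32 bases before the start: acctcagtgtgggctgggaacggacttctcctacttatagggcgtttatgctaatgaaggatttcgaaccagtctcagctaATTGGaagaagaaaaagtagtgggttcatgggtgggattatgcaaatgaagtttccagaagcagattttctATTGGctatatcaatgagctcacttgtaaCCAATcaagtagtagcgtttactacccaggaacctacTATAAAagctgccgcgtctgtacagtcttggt

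**Figure D3:**
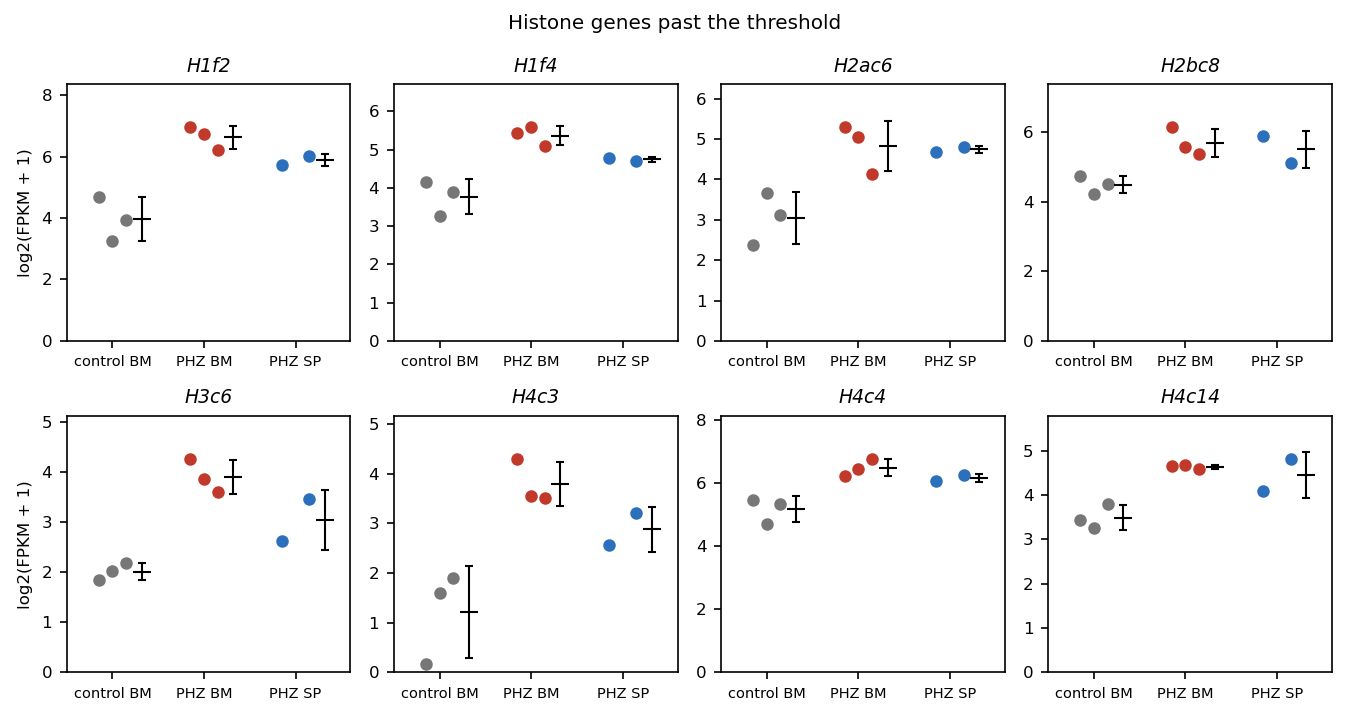
Expression of the 8 histone genes past the threshold in each library, as log2(FPKM + 1) on the vertical axis, for control BM HSC (gray, 3 libraries), PHZ BM HSC (red, 3) and PHZ SP HSC (blue, 2). Points are libraries and the black bar is the mean with its SD. All 5 PHZ libraries lie above the controls in each panel, and the spleen libraries of H1f2, H1f4, H3c6 and H4c3 lie below those of the marrow.

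All 17 replication genes tested and all 22 mitosis genes tested had lower means in PHZ, with medians of -0.74 and -1.21, but 4 of each were separated lower (23.5% and 18.2%, beside 4.94%) and none passed. Rrm1, the large subunit of ribonucleotide reductase, had 24.5, 23.5 and 27.0 FPKM in the controls, 9.01, 7.96 and 12.4 FPKM in PHZ BM HSC and 22.2 and 21.3 FPKM in PHZ SP HSC (limma adjusted p = 0.212). Its spleen values lay just under the controls. Mcm7, a subunit of the replicative helicase, was lower in both tissues by a like amount, with 37.3, 47.6 and 48.4 FPKM in the controls, 26.9, 26.6 and 31.0 FPKM in PHZ BM HSC and 29.4 and 32.9 FPKM in PHZ SP HSC (-0.58 ± 0.15, adjusted p = 0.123).

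The mitotic cyclin gene Ccnb2 had 47.4, 30.6 and 66.9 FPKM in the controls, 2.68, 8.83 and 10.9 FPKM in PHZ BM HSC and 25.1 and 25.9 FPKM in PHZ SP HSC (limma adjusted p = 0.189). The marrow carried most of that difference. Kif11, a motor of the spindle, was low in both tissues, at 0.358, 0.571 and 0.850 FPKM in PHZ BM HSC and 0.228 and 1.74 FPKM in PHZ SP HSC, against 5.94, 1.82 and 4.39 FPKM in the controls (adjusted p = 0.0776). Gins1, Gins2, Prc1 and Cenpe were the other separated genes. The median of the mitosis list was -1.78 in marrow and -0.33 in spleen, and that of the replication list -1.08 and -0.13, both against the same controls.

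Anemia draws on the erythroid program, whose lists were read next. Of 14 erythroid transcription factors tested, 2 were separated higher (14.3%, beside 5.42% of all genes), Gata2 and Bcl11a, and neither passed. Gata2, which acts in stem and progenitor cells, had 41.3, 47.7 and 36.2 FPKM in the controls, 75.8, 86.3 and 66.7 FPKM in PHZ BM HSC and 58.0 and 72.9 FPKM in PHZ SP HSC (0.77 ± 0.16, limma adjusted p = 0.0549). Of 27 red cell proteins, 2 were separated higher (7.41%), Cldn13 and Ank1, and neither passed. Cldn13, a claudin of mouse erythroid cells, had 0, 0.311 and 1.02 FPKM in the controls, 1.25, 2.09 and 1.23 FPKM in PHZ BM HSC and 15.3 and 11.1 FPKM in PHZ SP HSC, so that its marrow values were barely above the controls. The median of the red cell list was 0.25 in marrow and 0.98 in spleen.

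None of 15 heme synthesis genes was separated, and 1 of 17 iron handling genes was (5.88%), Tfr2, the second transferrin receptor, whose lowest PHZ library was level with the highest control at 21.4 FPKM. In the list of heme breakdown and oxidative defence, 3 of 19 were separated higher (15.8%, Nfe2l2, G6pdx and Cat) and 1 lower (5.26%, Prdx1), and none passed. Nfe2l2, the transcription factor NRF2 of the oxidative stress response, had 11.5, 15.6 and 16.0 FPKM in the controls, 28.3, 24.1 and 23.5 FPKM in PHZ BM HSC and 26.8 and 23.4 FPKM in PHZ SP HSC (0.78 ± 0.17, limma adjusted p = 0.0601), with no overlap of the sides. Summed FPKM of 8 erythroblast markers was 44.2 to 103 in the controls, 81.9 to 152 in PHZ BM HSC and 343 to 412 in PHZ SP HSC, and none of the 7 tested was separated. Most of this sum was Hba-a1, at 35.7 to 96.8, 68.6 to 132 and 291 to 357 FPKM. The part of these markers in the red cell results was not tested.

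Of 24 HSC identity genes tested, 4 were separated higher (16.7%) and 2 lower (8.33%), beside 5.42% and 4.94% of all genes. Procr, Robo4, Flt3 and Hoxa9 were higher in every PHZ library and Angpt1 was among those lower, with none of the 24 past the threshold. Membership of this list does not make a gene a mark of HSCs alone, and nothing on HSC identity is read from these counts. Procr, the endothelial protein C receptor used to enrich HSCs, had 32.4, 48.8 and 38.8 FPKM in the controls, 77.2, 66.8 and 52.4 FPKM in PHZ BM HSC and 87.0 and 73.9 FPKM in PHZ SP HSC (0.82 ± 0.18, limma adjusted p = 0.0699). The summed level of the sorting markers Kit, Ly6a and Slamf1 with Procr was 246 to 340 FPKM in the controls, 305 to 326 FPKM in PHZ BM HSC and 373 to 398 FPKM in PHZ SP HSC, and all were detected in all libraries. The sum joins genes that moved in opposite directions. Kit had 119 to 150 FPKM in the controls, 87.7 to 141 FPKM in PHZ BM HSC and 103 and 83.6 FPKM in PHZ SP HSC. Ly6a had 85.6 to 148, 95.2 to 177, and 176 and 234 FPKM. The sum therefore does not show that the sorted cells were alike. Among adhesion and homing genes, S1pr1 and Selplg, a ligand of selectins, were separated higher (14.3% of 14 tested) and Itga6, an integrin chain, lower (7.14%).

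In the list of S100, annexin and lysosome genes, 4 of 16 were separated higher (25.0%): Ctss, Cst3, Vim and Lgmn. Ctss, a lysosomal protease of antigen-presenting cells, had 5.05, 6.35 and 10.8 FPKM in the controls, 15.1, 15.5 and 20.3 FPKM in PHZ BM HSC and 47.7 and 59.8 FPKM in PHZ SP HSC (limma adjusted p = 0.133). In the fit with 3 groups it passed against control in marrow and in spleen (limma adjusted p = 0.0347 and 0.00162). The neutrophil and macrophage sums above were also highest in spleen. Of 14 antigen presentation genes, B2m (-0.34), H2-Ab1 (-0.42) and Tap1 (-0.30) were separated lower (21.4%, beside 4.94% of all genes) and H2-D1 (0.29) higher (7.14%, beside 5.42%), without passing. Of 20 interferon response genes, 1 was higher (5.0%, Ifitm1) and 2 lower (10%, Mx1 and Zbp1). The heat shock list had 2 of 15 higher (13.3%, Dnajb1 and Atf4), hypoxia and glycolysis 1 of 18 (5.56%, Aldoa), p53 targets 1 of 11 (9.09%, Bax), BMP and TGF-beta signalling 1 of 11 lower (9.09%, Ski), and the 6 DNA methylation enzymes and 4 sex-linked genes tested none.

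The tissues were then compared within the members. Each of the 60 genes passed in PHZ BM HSC against control in a fit with 3 groups and 22 passed in PHZ SP HSC against control, where 2.74% and 0.758% of all genes did. Of all genes tested, 26 passed in both tissues, 22 of them among the 60. The same libraries chose the 60 genes, both comparisons share the controls, and marrow gave 3 of the 5 PHZ libraries, so nothing is read from the difference between 60 and 22. The spleen count ranged from 4 to 17 when a library was left out, down to 4 without either spleen library. The difference was larger in marrow for 43 of the 60 genes and larger in spleen for 17, against 5271 and 6076 of all genes tested, 325 and 290 of the genes separated higher and 254 and 307 of those separated lower. As the choice of the 60 genes weighs marrow more, nothing is read from this count either.

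**Figure D4:**
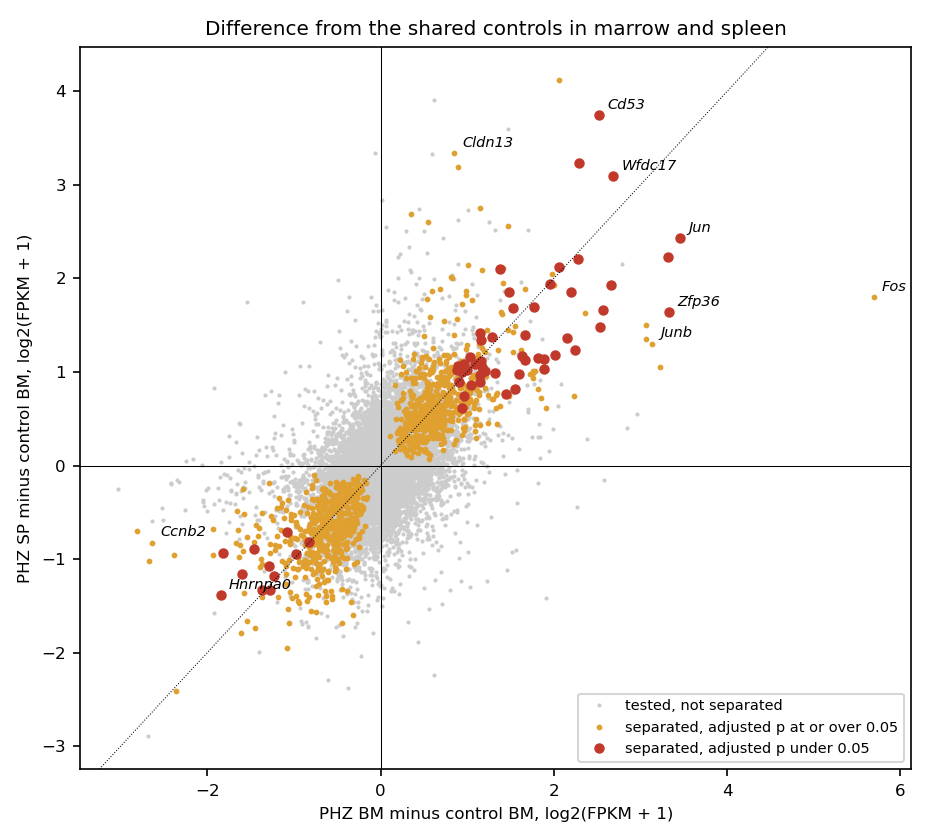
Difference from control BM HSC on the log2(FPKM + 1) scale for PHZ BM HSC (horizontal) and PHZ SP HSC (vertical), for 11347 genes. Gray points are not separated, orange points are separated, and red points are the 60 that are separated and pass the test, and the dotted line marks equal differences. Both axes use the same 3 controls, so points spread along the dotted line even without an effect. Fos, Junb and Zfp36 lie far to the right of the line and Cldn13 far above it.

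PHZ SP HSC was compared directly with PHZ BM HSC in the same fit, where the control libraries enter the estimate of the spread but not the difference, and 111 of all genes passed (0.978%). Of the 60 genes, 1 passed, Zfp36, which was lower in spleen by -1.69 (limma adjusted p = 0.00416). It was joined by Dusp1 in a fit of the 5 PHZ libraries alone and without control BM HSC replicate 3, and by Jun, Cd53 and Pik3ip1 without PHZ BM HSC replicate 3. No gene passed without PHZ SP HSC replicate 2. The values of Jun, Rhob and Dusp1 were -1.02 ± 0.27, -1.09 ± 0.33 and -1.01 ± 0.25 in spleen relative to marrow (limma adjusted p of 0.113, 0.175 and 0.0942), and those of Cd53 and Ccl9 were 1.23 ± 0.40 and 0.94 ± 0.43 (0.203 and 0.375). A p over the threshold does not show that marrow and spleen were alike.

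Over all separated genes, the direct comparison of the tissues called 14 of the 615 higher genes, 6 of them higher in spleen and 8 higher in marrow, and 4 of the 561 lower genes, 3 of them higher in spleen and 1 higher in marrow. The size of the difference between the tissues had a median of 0.20 in the higher genes and 0.21 in the lower ones, beside 0.27 over all genes tested. The rule asks both tissues to lie on one side of control, which by itself limits how far apart they can be.

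Among those of the 60 genes that differed from control by at least 1 in size, Tsc22d1, Plscr1, Snora17, Zik1 and Dnajb12 had the smallest differences between tissues, from -0.04 to 0.04. Gnb1, Gstm1 and Dtymk, with smaller differences from control, lay at 0.03, -0.02 and 0.01. Zik1 fell from 5.90, 3.77 and 4.17 FPKM in the controls to 0.931, 0.862 and 1.75 FPKM in PHZ BM HSC and 1.09 and 1.33 FPKM in PHZ SP HSC. Plscr1 rose from 10.9, 12.5 and 8.56 FPKM to 19.0, 19.4 and 28.9 FPKM and to 21.1 and 23.9 FPKM. In both genes the spleen values lay inside the range of the marrow values.

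**Figure D5:**
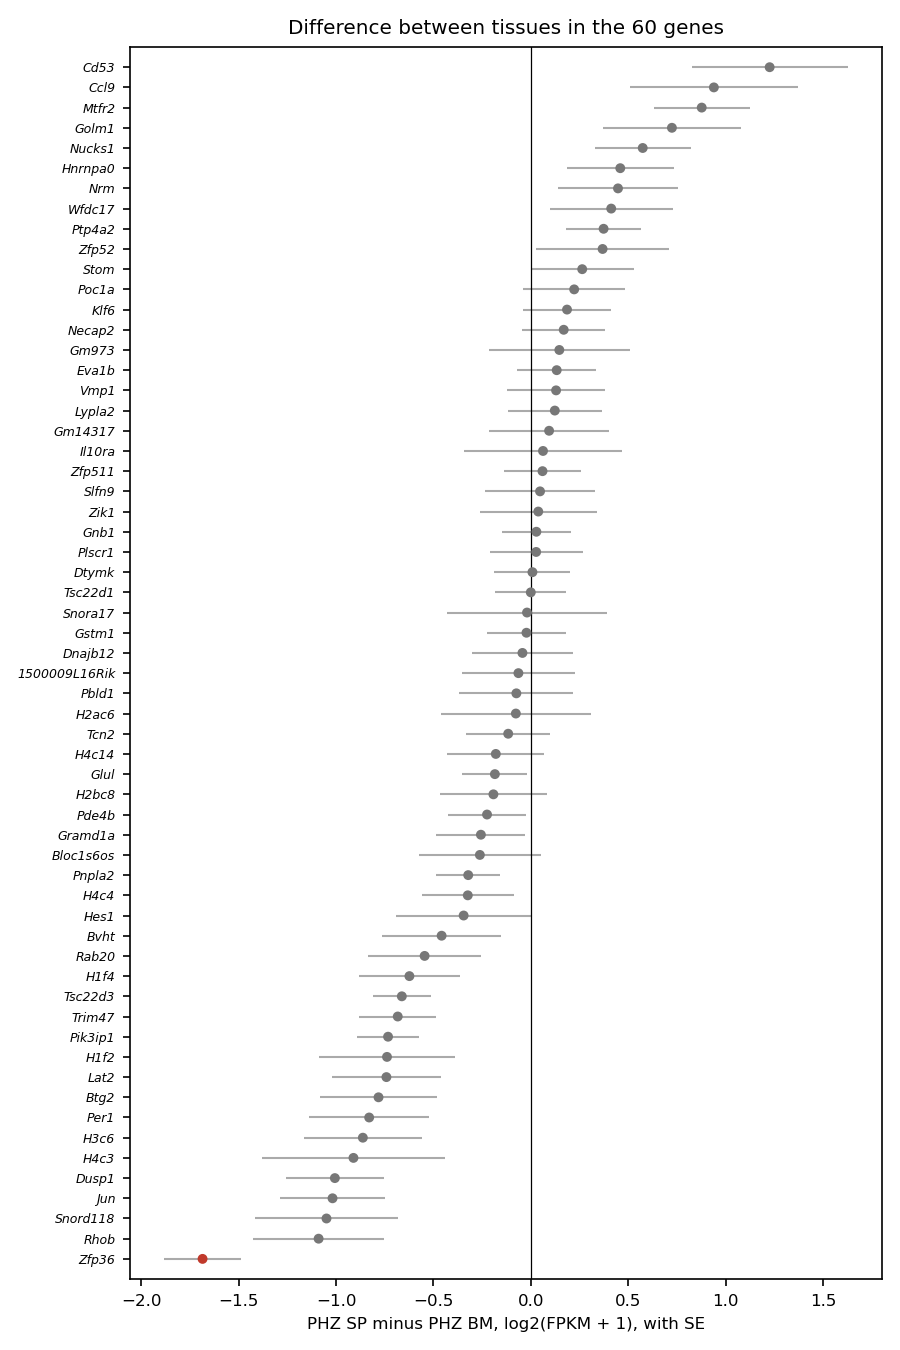
Difference of PHZ SP HSC from PHZ BM HSC on the log2(FPKM + 1) scale (horizontal, with SE) for each of the 60 genes, ordered by its value. Red marks the gene past the threshold, Zfp36, and gray the others. Cd53 and Ccl9 lie at the end higher in spleen, and Zfp36, Rhob, Snord118, Jun and Dusp1 at the end higher in marrow.

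The members also differed in level among themselves. Genes separated higher had a median level of 10.8 FPKM over all libraries and those separated lower of 4.34 FPKM, beside 5 FPKM for all genes tested. Their median differences were 0.64 and -0.62, with a sign that the rule fixes. At the edge of the rule, among genes with a mean of at least 10 FPKM, Aldoa, Tfr2 and Sec62 were just inside. Sec62 had 16.8 FPKM in both its lowest control and its highest PHZ library. Commd4, Srsf3 and Eif4b were just outside, where Eif4b had a highest control of 56.8 FPKM and a lowest PHZ library of 56.8 FPKM.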

How the data were processed

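RNA was measured in 8 libraries of sorted HSCs, 3 of control BM HSC, 3 of PHZ BM HSC and 2 of PHZ SP HSC, grouped by their titles. Per the study's methods, RNA from sorted cells was made into cDNA with SMART-Seq2 and into libraries with Nextera XT, and the authors mapped reads to mm10 with STAR 2.5.2b and compared groups with DESeq2 1.12.4. The gene counter, the annotation and the handling of strand are not given in the sources used here. The authors deposited FPKM values in a table per group, and tables of their own comparisons (fold changes, standard errors and p-values), which were not used. There are no molecular identifiers, so intervals of reads would cover counting error only.

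The tables had been scaled separately. Reads were worked back from the steps of each gene's FPKM values: all 110442 values above 0 came out whole within 0.002 reads, with 8216626 to 13201359 reads a library. Values were put on common median-of-ratios factors, which moved no library by more than 1.05%. A count test had been planned and was replaced by limma 3.58.1 (R 4.3.3, trend and robust options) on log2(FPKM + 1), since the deposited unit was FPKM. The reads worked back would have allowed a fit of reads, and voom on them was run as an alternative. It called 33 genes, of which 25 were among the 60, so the choice matters. Of 15142 genes in all 3 tables, 11347 with at least 1 FPKM in 2 or more libraries were tested, two-sided, at an adjusted p of 0.05. The test was tried on simulated data with known changes. The simulation gave all PHZ libraries the same change, with no difference between tissues and no outlying control library. It therefore does not cover these features of the data.

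The comparisons were 5 PHZ against 3 control libraries, and a fit with 3 groups for each tissue and for spleen against marrow. Named genes were the 12 higher and up to 12 lower genes with the smallest p among the separated genes past the threshold, up to 4 separated genes of each list, the 5 with the smallest and the 5 with the largest difference between tissues among those that differed from control by at least 1 (log2), and 3 genes on each side of the rule's edge. Other genes past the threshold, other separated list members and the histone genes were named after their values were seen. The members and the gene lists were chosen with earlier results of these data known. Coordinates and upstream windows came from RefSeq (GRCm38.p6), by Entrez gene ID. Alternatives covered the scaling, filter, pseudocount, fit, replicate block and each library left out. Python 3.11.15, numpy, pandas and matplotlib were used. One gene of the HSC identity list is not reported here by name.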

Additional observations from a re-analysis of the deposited data

Results flagged for a closer look

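Among the 60 genes past the threshold, the 5 PHZ libraries of Wfdc17 held a library apart from the others. PHZ BM HSC replicate 1, at 35.4 FPKM, lay below the rest, which ran from 64.1 to 80.1 FPKM, and the gap was 0.73 of the range of the 5 libraries on the log2(FPKM + 1) scale, above the critical value of 0.71. Chance alone gives such a gap in about 1 of 20 groups, and 60 genes were checked.

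In 10 of the separated genes named, PHZ SP HSC and PHZ BM HSC differed past the threshold in limma although both lay on the same side of control. Fos, Junb, Zfp36 and Dusp2 were lower in spleen than in marrow, by -3.89, -1.83, -1.69 and -1.29 on the log2 scale, and had been higher than control in both tissues. Cldn13, Klrb1c, a receptor gene of natural killer cells, Lgmn, Ctss and Vim were higher in spleen, by 2.49, 2.30, 2.07, 1.61 and 1.25. Rrm1 was higher in spleen than in marrow by 1.10, with both below control. Summed FPKM of 10 markers of T and NK cells was 21.8 to 61.9 in the controls, 31.5 to 49.6 in PHZ BM HSC and 43.8 to 54.1 in PHZ SP HSC. Without Klrb1c, which is one of the 10, the sum was 20.4 to 61.3, 28.5 to 47.2 and 29.1 to 35.7 FPKM, most of it Nkg7. The other 8 markers summed to 0.161 to 1.59 FPKM in the controls, 0.741 to 1.52 FPKM in PHZ BM HSC and 2.22 to 7.85 FPKM in PHZ SP HSC, and their part in the value of Klrb1c was not tested.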

How the results depend on the processing

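No result changed direction under an alternative. The 60 genes past the threshold became 14 with no filter on low values, 15 without the trend and robust options, 33 with voom and 193 in a fit with 3 groups that averages the PHZ groups, and ranged from 5 to 88 when a library was left out. The 1176 separated genes ranged from 1365 to 2354, since fewer libraries have to agree. Of the 60 genes, 60 passed in PHZ BM HSC (30 to 56 with a library left out) and 22 in PHZ SP HSC (4 to 17, and 9 with a pseudocount of 0.1 FPKM), and the 1 that differed between tissues became 2 in the 5 PHZ libraries alone (0 to 4). The 9 genes of the lists became 4 with no filter, 38 with 3 groups, 3 without trend and robust options and 5 with voom (1 to 15). The 8 histone genes became 1 with no filter, 1 without those options and 2 with voom (1 to 9). The labels give groups the same replicate numbers, but libraries of the same number did not deviate together (no correlation over 0.07 in size). With the replicate number as a block, 16 genes passed, all of them higher, so none of the 11 lower genes kept its call. In that fit 4 genes of the lists passed, 2 histone genes, 17 genes in spleen and 5 between tissues. With 43.3% to 48.6% of reads on Rn45s, low genes are the least precise. For the 119 single genes named, 2109 values were recomputed, all in the same direction. Of these, 1604 stayed on their side of the threshold, 477 fell out of it and 28 came to pass. Genes that had not passed at first could only stay or come to pass. All 477 losses were therefore those of the 60 genes past the threshold. Of those 60, 36 passed at most 2 times when the 8 libraries were dropped in turn, and 4 passed each time.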
